A study of Saccharomyces cerevisiae with 7 samples.

Results

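Rph1 binding in yeast lacking Ppm1 was set against Rph1 binding in wild-type yeast shortly after a change of medium, with 2 libraries on each side out of 7 in the series and all 731 peaks of the deposited table. The members were chosen by their labels: both ppm1 deletion libraries and both libraries of the switched wild type, with the wild-type libraries from YPL left out. The assay was chromatin immunoprecipitation followed by sequencing (ChIP-seq) through an HA epitope tag on Rph1. All strains were Saccharomyces cerevisiae CEN.PK, MATa, with the tagged allele RPH1-HA-HYG. The first group carried ppm1::kanMX, a deletion of PPM1, and grew in YPL (a rich lactate medium with 2% peptone, 1% yeast extract and lactate at 2%) to log phase at an OD600 near 1.0. The second group was wild type for PPM1 and was taken 1 h after its YPL culture was moved to SL, a synthetic lactate medium. For SL the label of replicate 1 names 0.17% yeast nitrogen base lacking amino acids, and that of replicate 2 names 0.5% ammonium sulfate with 2% lactate; both were read as one recipe. Strain and medium both differ between the groups, so their parts cannot be told apart. The table holds values per peak and none for the PPM1 gene, so the deletion was not checked here.

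Rph1, a JmjC-domain enzyme, takes methyl groups off lysine 36 of histone H3 and also binds DNA through zinc fingers. Ppm1 is the methyltransferase that uses S-adenosylmethionine to methylate the last residue, a leucine, of the catalytic subunit of the phosphatase PP2A. Without Ppm1 this subunit stays unmethylated in any medium, whereas wild-type yeast loses the mark when moved from rich to minimal lactate medium, as S-adenosylmethionine falls. The comparison asks whether Rph1 occupancy in the deletion strain, still in rich medium, resembles that of wild-type cells 1 h into minimal medium.

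Rph1 occupancy differed between the groups in both directions. Signal in the ppm1 deletion was higher than in SL at 149 peaks and lower at 110, together 35.4% of the 731 tested (20.4% higher and 15.0% lower). The median difference among the higher peaks was 1.59-fold and among the lower peaks 1.57-fold. Both sets were spread over all 16 chromosomes. At 31 peaks (4.24%) the groups differed by more than 2-fold, 11 of them higher in the deletion and 20 lower.

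Likeness was counted separately. At 257 peaks (35.2%) the 95% interval of the difference lay within 1.5-fold, and at 9 of these it lay within 1.25-fold. The remaining 215 peaks neither passed the test nor had an interval that narrow, so they show neither a difference nor a likeness at this precision. Likeness here is of signal: input use is not given, and whether Rph1 was bound at the 257 peaks was not tested. In SL replicates 1 and 2, 64 and 61 of the 257 were among the lowest 183 peaks per kb and 32 and 40 among the highest 183. In the deletion replicates 81 and 79 were among the lowest 183 and 34 and 39 among the highest. Without the 10% of peaks lowest in signal per kb, 142 of 657 peaks lay within 1.5-fold. Libraries of the groups did not overlap at 487 peaks (66.6%), with both deletion libraries above both SL libraries at 272 (37.2%) and below them at 215 (29.4%).

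**Figure D1:**
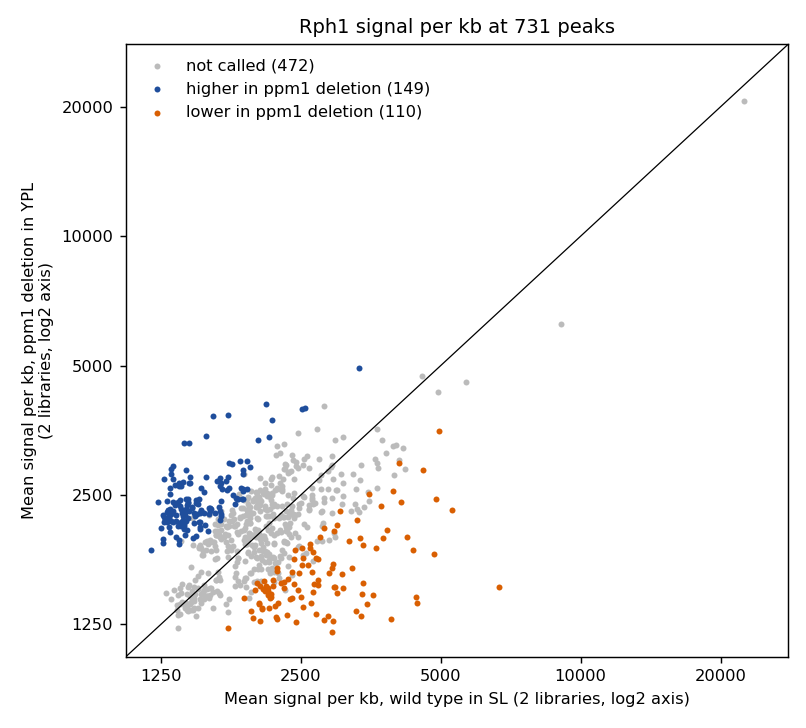
Mean Rph1 signal per kb of peak in wild type after 1 h in SL (x axis) against the ppm1 deletion in YPL (y axis), each the mean of 2 libraries, on log2 axes; each point is 1 of 731 peaks, coloured by its call, and the line marks equal values. Of the 149 higher peaks, 105 are among the 183 lowest of each SL library and 3 among the 183 highest, and of the 110 lower peaks 74 and 77 are among the 183 lowest of the deletion libraries and 6 among the 183 highest.

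The deposited unit is a signal per peak scaled to a common library size, and dividing it by peak width gives signal per kb, used wherever levels of different peaks are set side by side. Peaks that were higher in the deletion had little signal per kb in SL. Their median there was 1481 and 1444 in replicates 1 and 2, beside 2158 and 1820 over all peaks, and in each SL library 105 of the 149 were among its lowest 183 peaks. In the deletion the same peaks had medians of 2552 and 2172 per kb, beside 2235 and 1991 over all peaks. None of them was among the lowest 183 in either deletion library, and 65 and 61 were among the highest 183.

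The 110 lower peaks showed the mirror image. In the deletion their medians were 1590 and 1504 per kb, and 74 and 77 of them were among the lowest 183 peaks of replicates 1 and 2. In SL they stood at 3026 and 2283 per kb, with 72 and 71 among the highest 183 and none among the lowest 183. As these calls were made from the same libraries, the levels describe the called peaks and test nothing. The 1st percentile over peaks was 1243 to 1288 per kb in the 4 libraries, which is the low end of the table for comparison.

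The peak that differed most lay on chromosome V from 339080 to 343976 (all positions are in sacCer2, the build in the submitters' processing notes). It held 40449 and 24806 in the SL libraries and 7490 and 7430 in the deletion libraries. Both SL values were high and apart, and both deletion values were low and close together. The SL level was 4.25 times that of the deletion, a log2 difference of -2.09 for deletion minus SL (95% interval -2.60 to -1.58, limma adjusted p = 1.7e-12). Here and at the peaks below, interval, SE and p-value use a spread fitted over all peaks. They do not measure the spread of the replicates at a peak, which in SL was log2 0.71 apart at this one. Per kb the V peak stood at 8260 and 5066 in SL and at 1529 and 1517 in the deletion.

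A peak on chromosome X from 678334 to 683859 held 29576 and 19508 in SL and 7847 and 7660 in the deletion (log2 -1.63, SE 0.26). On chromosome VI, the peak from 211796 to 217106 held 27916 and 18976 in SL and 7750 and 7620 in the deletion (log2 -1.58, SE 0.26). The peak on VIII from 25306 to 28522 held 15041 and 10119 in SL and 4189 and 4068 in the deletion (log2 -1.58, SE 0.22). At each of these the SL libraries lay far above both deletion libraries, and replicate 1 of SL was above replicate 2. The II peak from 379694 to 383475 held 21914 and 14591 in SL against 7267 and 6497 in the deletion (log2 -1.38, SE 0.26).

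The next 5 in order were a XIV peak from 114645 to 119291 (log2 difference -1.34), a XVI peak from 127800 to 132797 (log2 -1.29), a XII peak from 322695 to 327429 (log2 -1.28), a IV peak from 1452476 to 1456042 (log2 -1.27) and a second XII peak from 16404 to 20226 (log2 -1.26). Across these 10 peaks, which lay on 9 chromosomes, adjusted p-values from limma reached at most 7.7e-06. They were wide, from 3217 to 5526 bp, beside a median of 2528 bp over all peaks. Signal per kb in the deletion ran from 1162 to 1921, and 9 of the 10 were among the lowest 183 peaks in both deletion libraries. In SL all 10 were among the highest 183 in both libraries. Replicate 1 of SL exceeded replicate 2 at all 10, by log2 0.44 to 0.71. It did so at 634 of all 731 peaks, with a median over all peaks of log2 0.23. The deletion replicates differed at the 10 by log2 0.01 to 0.16. The calls at the II, XIV, XVI and IV peaks and at the XII peak from 322695 were lost when 1 deletion library was left out, with log2 values of -1.21 to -1.38 in those fits.

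In the other direction, a peak on chromosome X from 138693 to 140653 stood highest in the deletion relative to SL. It held 7283 and 5696 in the deletion and 2702 and 2789 in SL, so both deletion values were above both SL values. The deletion level was 2.35 times that of SL (log2 1.23, 95% interval 0.92 to 1.54, limma adjusted p = 5.3e-12). Per kb the peak stood at 3714 and 2905 in the deletion and at 1378 and 1422 in SL.

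The XIII peak from 296560 to 299369 held 12036 and 9407 in the deletion and 4614 and 4470 in SL (log2 1.23, SE 0.22). On VII from 310318 to 312683 the deletion libraries held 8675 and 6915 and the SL libraries 3395 and 3409 (log2 1.19, SE 0.18). A narrow peak on XII from 282478 to 284203, of 1726 bp, held 5469 and 4617 in the deletion and 2350 and 2233 in SL (log2 1.13, SE 0.15). At these peaks it was SL that held the close pair of low values and the deletion that held the higher, more spread pair. The XV peak from 778118 to 781481 held 12600 and 10447 against 5426 and 5068 in SL (log2 1.13, SE 0.23).

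Completing the 10 were a XIV peak from 499080 to 501544 (log2 1.13), a X peak from 73244 to 75460 (log2 1.12), a XII peak from 636388 to 640476 (log2 1.09), a IV peak from 578835 to 581117 (log2 1.08) and a XV peak from 91566 to 94931 (log2 1.03), with limma adjusted p-values over the 10 of at most 2.2e-05. The folds at these 10 peaks ran from 2.04 to 2.35, against 2.40 to 4.25 at the 10 peaks named for the opposite direction. Without SL replicate 1 the log2 differences were 1.00 to 1.25 here and -1.01 to -1.73 at the opposite 10. Without SL replicate 2 they were 1.05 to 1.25 and -1.50 to -2.44. Signal per kb in SL was 1250 to 1770 at the 10 peaks highest in the deletion, and in the deletion 2481 to 4290. Replicate 1 of the deletion exceeded replicate 2 at all 10, by log2 0.23 to 0.36. It did so at 694 of all 731 peaks, with a median over all peaks of log2 0.17. The SL replicates differed at the 10 by log2 -0.05 to 0.10. All 10 calls held when any 1 of the 4 libraries was left out.

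A library outside the comparison was set beside these values. Rph1 with the substitution S412A, from a single library grown in YPL in a strain with PPM1 intact, held 1096 to 1600 per kb at the 10 peaks lowest in the deletion relative to SL. The deletion held 1162 to 1921 there and SL 2444 to 8260. At the V peak S412A stood at 6919, beside 7490 and 7430 in the deletion. At the 10 peaks highest in the deletion, S412A held 1913 to 2725 per kb, above every SL value (1250 to 1770) and partly within the range of the deletion (2481 to 4290). At the X peak from 138693 S412A stood at 4527, between the 2789 of SL and the 5696 of the deletion. With 1 library for S412A these are values side by side, without a test.

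**Figure D2:**
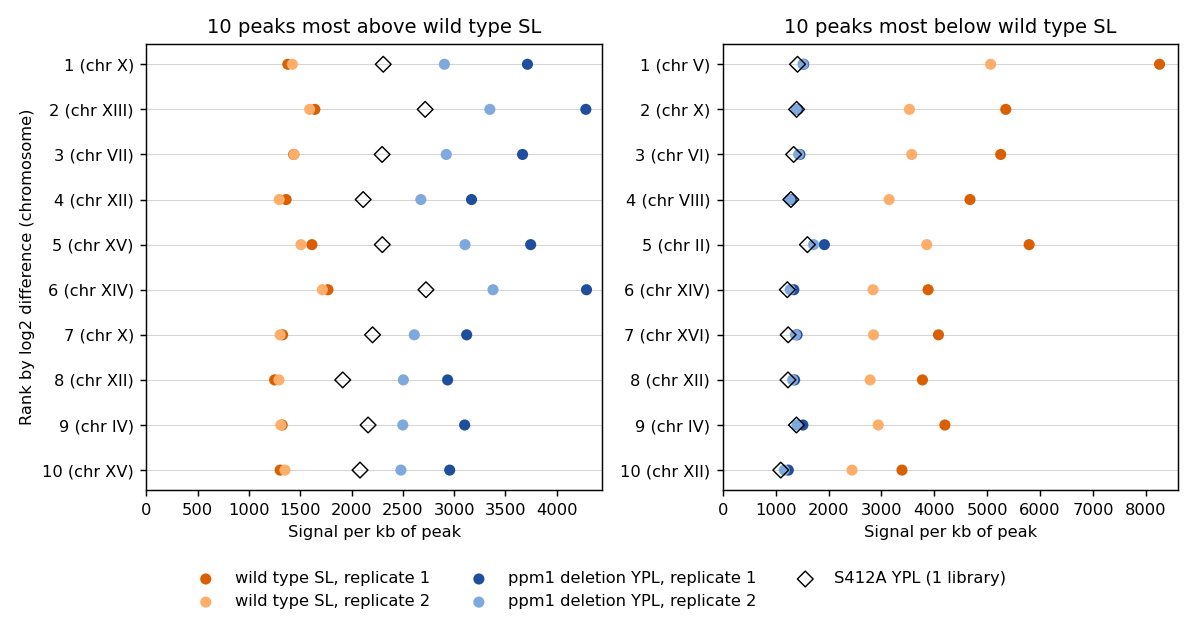
Rph1 signal per kb (x axis) at the 10 peaks with the largest log2 difference in each direction, ranked and given with their chromosome (y axis); each point is 1 library, with both wild-type SL libraries, both ppm1 deletion libraries and the single S412A library. The low group forms a close pair in each panel, at 1250 to 1770 per kb in SL on the left and 1162 to 1921 in the deletion on the right.

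Not every strong peak differed. The peak with the highest signal per kb, on chromosome XII from 488758 to 490971, held 48476 and 50972 in SL and 42395 and 49064 in the deletion. The values of both groups overlapped, with a log2 difference of -0.12 (95% interval -0.50 to 0.26, limma adjusted p = 0.652). Its mean over the 4 libraries was 21557 per kb, far above the 7675 of the next highest peak. How multiply aligned reads were placed is not stated, and whether repeated sequence adds to this signal was not tested. The peak was among the 257 peaks whose interval lay within 1.5-fold. Of these, the next highest per kb were XVI from 430771 to 434815 (log2 0.07), XII from 367788 to 371761 (-0.01), V from 116719 to 118725 (0.02) and XV from 274030 to 275341 (-0.12). At the XVI peak SL held 22112 and 14815, and the deletion values of 21095 and 17147 lay between them.

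Of the 10 peaks highest in mean signal per kb over the 4 libraries, 4 passed as lower in the deletion, 1 as higher and 5 did not pass. Over all 731 peaks 15.0% passed as lower and 20.4% as higher. The ranking used the compared libraries themselves, so the counts describe these 10 peaks and test nothing. Passing as lower were the V peak from 339080, a IV peak from 1506595 to 1510455 (log2 -1.17), a XII peak from 94927 to 99034 (log2 -0.65) and, with overlapping libraries, the first IV peak, from 1 to 1225 (log2 -0.47). The one that passed as higher was XIII from 267219 to 268840, with 9013 and 7012 in the deletion against 6323 and 4470 in SL (log2 0.58, limma adjusted p = 0.0204). Not passing, beside the XII peak from 488758 and the XVI peak from 430771, were III from 1 to 1616 (-0.53, adjusted p = 0.100), VII from 882015 to 884787 (-0.29) and XVI from 643761 to 647151 (-0.16). The 4 calls other than that at the V peak were each lost when 1 of the libraries was left out.

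Which peaks were strong differed more between the groups than raw signals show. Across the 731 peaks log2 signal correlated at 0.78 to 0.87 (Pearson) between a deletion library and an SL library, beside 0.984 between the SL replicates and 0.993 between the deletion replicates. The rank correlation (Spearman) of raw signal across groups was 0.76 to 0.85. Wide peaks hold more signal in any library: log2 signal correlated with log2 width at 0.83 to 0.90. Per kb, the Pearson correlation of log2 values across groups was 0.26 to 0.34. The rank correlation per kb was 0.14 to 0.17 across groups, beside 0.975 between SL replicates and 0.985 between deletion replicates. Without the XII peak from 488758 the rank correlations across groups were also 0.14 to 0.17, and the Pearson values 0.21 to 0.24. The points of each value share libraries and peak boundaries, and they describe these libraries. S412A correlated per kb with the deletion at 0.910 and 0.937 and with SL at 0.163 and 0.186.

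The strongest peaks of each group were then listed. Of the 183 peaks highest per kb in SL, 72 (39.3%) were also among the 183 highest in the deletion. Single libraries of the same group shared 163 of 183 in SL and 165 of 183 in the deletion, against 68 to 71 for the 4 pairs across groups. Of the 20 highest in each group (2.74% of all peaks), 6 were shared (30%).

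Differences between libraries gave the scale of the replicate spread. The median size of the difference over peaks was log2 0.23 between the SL replicates and 0.17 between the deletion replicates. Across groups it was 0.28 to 0.37. The signed medians of replicate 1 minus replicate 2 were also 0.23 in SL and 0.17 in the deletion, so the replicate sizes largely hold an offset between libraries. No peak differed by more than 2-fold between replicates of either group, whereas 18 to 60 peaks did so in the pairs across groups. Among the 4 pairs across groups, the nearest was replicate 2 of both, and its median of 0.28 was above that of either replicate pair.

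**Figure D3:**
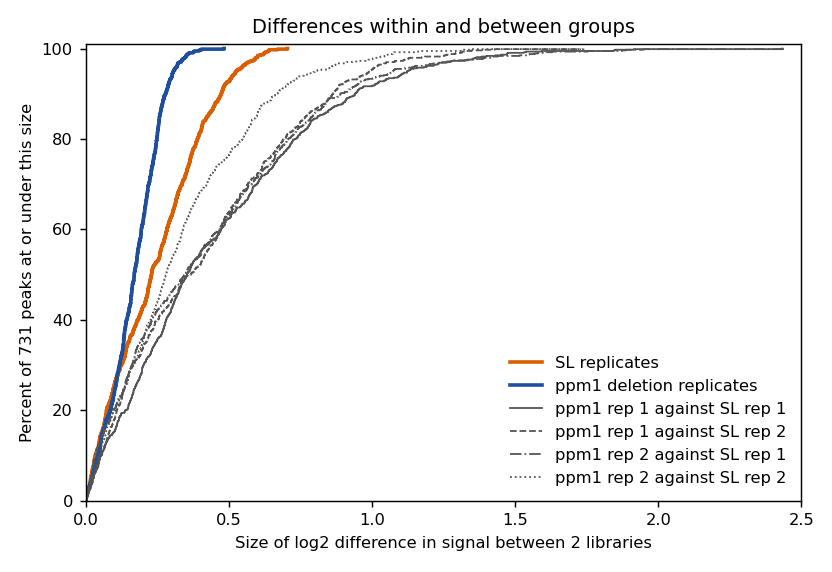
Size of the log2 difference in signal between 2 libraries (x axis) against the percent of 731 peaks at or under that size (y axis), for the replicate pairs (coloured lines) and the 4 pairs across groups (grey lines). Replicates reach 95% of peaks by 0.31 and 0.53, and the pairs across groups by 0.80 to 1.12.

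Peaks were then split by their height in the S412A library. Its ranks per kb follow those of the deletion closely (0.910 and 0.937), so the split is near to one by the deletion itself; the counts describe the called peaks and test nothing. Of the 183 peaks lowest per kb there (1096 to 1535), 69 were lower in the deletion than in SL (37.7%, beside 15.0% over all peaks) and 2 were higher. Of the 183 highest (1985 to 14199), 61 were higher (33.3%, beside 20.4%) and 4 were lower. The classes between them, of 183 and 182 peaks, held 23 and 63 higher and 27 and 10 lower. The median log2 difference went from -0.26 in the lowest class over -0.03 and 0.27 to 0.27 in the highest. In the lowest class SL had a median of 1939 per kb and the deletion 1491. In the highest class SL had 2223 and the deletion 2692. With classes from the mean of the 4 compared libraries in its place, the direction turned: the lowest class held 41 higher and 22 lower, and the highest 19 higher (10.4%) and 36 lower (19.7%).

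Width divided the calls less sharply. Among the 211 peaks under 2 kb, 61 were higher in the deletion (28.9%) and 28 lower (13.3%). Of the 276 peaks of 2 to 3.2 kb, 60 were higher and 39 lower. The 244 peaks from 3.2 kb held 28 higher (11.5%) and 43 lower (17.6%). The fitted spread mostly rose with signal, which follows width, so wide peaks tended to need a larger difference to pass. Intervals lay within 1.5-fold at 92 of the 211 narrow peaks and at 58 of the 244 wide ones. These shares therefore mix precision with difference.

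**Figure D4:**
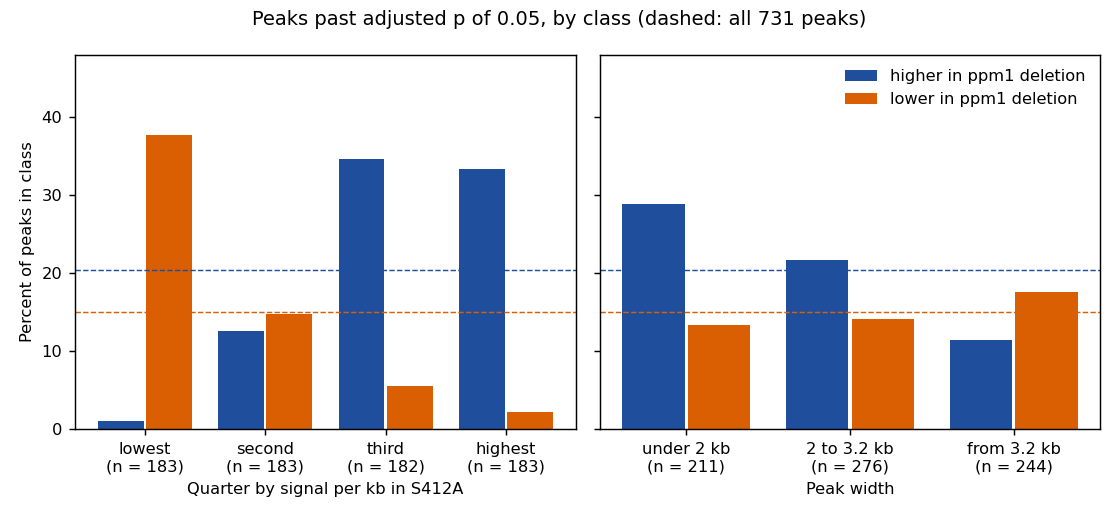
Percent of peaks (y axis) that passed as higher or lower in the ppm1 deletion than in wild type in SL, by class of signal per kb in the S412A library (left) and by peak width (right); dashed lines give the 20.4% and 15.0% over all 731 peaks. Lower calls make up 37.7% of the class lowest in S412A, and higher calls 33.3% of the class highest in it; with classes from the mean of the 4 compared libraries the highest class holds 10.4% higher and 19.7% lower.

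Wide peaks at chromosome ends did not differ in the test. Of the 32 outermost peaks of chromosome arms, 19 were at least 4 kb wide, and none of these passed in either direction (35.4% did so over all peaks) or at an unadjusted p of 0.05 in limma. Their log2 differences ran from -0.15 to 0.03 with a median of -0.05, and the deletion mean was below the SL mean at 18 of the 19. At 14 of the 19 the interval lay within 1.5-fold, a larger share than the 35.2% over all peaks. An example chosen after its values were seen, the IX peak from 1 to 8357, held 25013 and 22781 in SL and 24142 and 23350 in the deletion, values that overlapped. Internal peaks of at least 4 kb numbered 123 and ranged from -2.09 to 1.09, with 12 higher and 24 lower. Among the 13 narrower outermost peaks 2 were higher (15.4%, beside 20.4% over all peaks) and 3 lower (23.1%, beside 15.0%), and with median-centred libraries 8 were lower. Chromosome ends carry repeats in common, and how multiply aligned reads were placed is not stated, so these peaks may not be separate observations.

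Calls were made with limma on log2 signal of the 4 libraries, with Benjamini-Hochberg adjustment over 731 peaks at 0.05, and unadjusted p-values under 0.05 numbered 173 for higher and 145 for lower. The counts rested on single libraries: lower calls numbered 43 without SL replicate 1 and 48 and 36 without deletion replicates 1 and 2, and higher calls 73 without deletion replicate 1. Peaks within 1.5-fold numbered 170 and 126 without deletion replicates 1 and 2. This dependence was seen with the deposited scaling, where lower calls rose without SL replicate 2. With median-centred libraries, most of the 149 higher and 110 lower calls were kept whichever library was left out. No peak called in either direction was called in the opposite one in any of these fits. The median log2 difference over all peaks was 0.03, with pairs of libraries from -0.10 to 0.21 (exact two-sided permutation test of library medians, p = 0.667, where groups of 2 allow no less than 0.333). Scaling to a common library size can take out a shift common to all peaks. These values therefore cannot show whether such a shift occurred. The share of reads in peaks was 24.1% and 19.7% in SL and 22.6% and 20.0% in the deletion, replicate 1 being the higher in both groups. Its part in the differences was not tested.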

How the data were processed

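The deposited table gives a signal per peak, never negative, for 731 peaks in 7 libraries. Per the submitters' processing notes, reads were aligned with Bowtie2 to sacCer2; the version, peak caller, filters, peak merging and input use: not given in the sources used here. All values of a library were whole multiples of 1 step (tolerance 0.001), so the deposited signal was read as reads scaled to a library of 22000000. That reading is an inference that the sources do not state, and the values did not meet the criterion for recovering whole reads, so no count test was run and depths below are approximate. Implied totals were 13808893 and 20499295 for SL and 22594042 and 34820208 for the deletion. On that reading the lowest peak held at least 1010 reads, a counting error of 3.15%, which covers counting only.

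Differences were fitted with limma 3.58.1 in R 4.3.3 (eBayes with trend, pseudocount 0) on the 4 libraries, leaving 2 residual degrees of freedom. Prior degrees of freedom were infinite, so each peak took its spread from the trend (SD 0.15 to 0.26, median 0.17, log2). An SE, interval or p-value of a peak therefore does not measure the spread at that peak. Whether replicates came from separate cultures is not in the labels; p-values therefore reflect spread among these samples alone, possibly technical. The fit was also run on simulated data with the same spread at every peak and no offset between libraries. The libraries here differ from that setting, so that run does not test the calls. Correlations and the permutation test used SciPy 1.17.1.

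Named were the 10 peaks per direction with the largest log2 difference, past the threshold and without overlap of libraries, the 10 highest per kb, and the 5 highest per kb within 1.5-fold. Members, classes and rules were chosen with earlier results of these data known. Gene lists were not used, because peaks carry no gene names and the available gene annotation (R64) is of a different build. Alternatives covered pseudocount, filter, scaling, spread, threshold, a replicate block and leaving out each library.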

Additional observations from a re-analysis of the deposited data

How the results depend on the processing

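The median log2 difference stayed between -0.05 and 0.13 when 1 library was left out. Leaving out 1 library gave 73 to 150 higher, 36 to 159 lower and 126 to 196 within 1.5-fold; with median-centred libraries, chosen after seeing the data, the same gave 135 to 254, 144 to 250 and 269 to 474 (235 lower without SL replicate 1, 239 higher and 399 within 1.5-fold without SL replicate 2). Median-centring gave 226 higher, 218 lower and 421 within 1.5-fold, and quantile normalization 234, 241 and 445. All 259 calls were kept with median-centring, and 146 of the higher and 110 of the lower with quantile normalization. Replicate 1 was above replicate 2 at 634 of the 731 peaks in SL and at 694 in the deletion. Apart from that common offset, which a correlation leaves out, replicate differences of the groups went together only weakly across peaks (correlation 0.14). The labels do not tie the numbers to a culture or day. The replicate block gave 255 higher, 191 lower and 418 within 1.5-fold. An adjusted p of 0.01 left 70 lower. Without the 10% of peaks lowest per kb, 142 of 657 peaks lay within 1.5-fold (the cause was not tested), and a limit of 1.25-fold left 9.

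With classes from the mean of the 4 libraries in place of S412A, the lowest class held 41 higher and 22 lower and the highest 19 higher and 36 lower; the cause was not tested. With median-centred calls, chosen after seeing the data, the S412A classes held 4 higher and 104 lower (lowest) and 20 lower (highest). At XII from 367788 the difference turned from -0.01, not passing, to 0.22 with quantile normalization. XVI from 430771 (0.22) and XV from 274030 (-0.24), also named within 1.5-fold, gained a call with it. III from 1 gained a call with median-centring (-0.57), quantile normalization (-0.39), no trend in the spread, the 7-library spread and the replicate block. VII from 882015 gained a call with median-centring (-0.34) and the replicate block. The causes were not tested. Of 512 values at named peaks under these settings, 469 kept their call or moved by less than the replicate SD, 22 calls were lost and 16 gained. Count tests on reads read from the steps were not run, as the deposited unit is a scaled signal. The smallest log2 size called was 0.36.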

Other observations

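Some neighbouring peaks moved in opposite directions. Of 93 neighbouring pairs separated by less than 2 kb, both peaks were called in 4 and only 1 of the peaks in 43. Over all peaks 20.4% were called higher and 15.0% lower, and whether the pairs depart from these shares was not tested. The pairs were picked out after their values were seen. In 3 of the 4 the directions were opposite. All 3 lay on chromosome IV. The peak from 1449676 to 1451323 held 2302 and 2257 in SL and 3773 and 3205 in the deletion (log2 0.61), while its neighbour from 1452476 to 1456042, 1152 bp away, held 14984 and 10487 in SL and 5403 and 5009 in the deletion (log2 -1.27). Peaks from 340039 to 341754 (log2 0.65) and from 343580 to 346247 (-0.82) lay 1825 bp apart, and peaks from 303015 to 305276 (-0.47) and from 306203 to 310464 (0.74) lay 926 bp apart. In the fourth pair, on XII, both were higher in the deletion, from 197865 to 200253 (0.44) and from 201363 to 203007 (0.93). Chromosome XII also had the largest share of higher calls among the 16 chromosomes, 17 of 57 peaks (29.8%, beside 20.4% over all peaks), with 8 lower.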
